A study of Homo sapiens with 14 samples.

Results

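The genes described here encode interleukin 2 (IL2) and chains of the receptors for interleukins 2, 4, 7 and 21: IL2RA, IL2RB, IL2RG, IL7R, IL4R and IL21R. The 7 genes were chosen by name out of 19974 protein-coding genes, and each was described by the CUT&Tag peaks that touched its annotated body or the 50 kb on either side, called its window below. Over all 14 peak lists the windows held 290 distinct peaks of 273342. CUT&Tag maps a protein or histone mark by tethering the transposase Tn5 to an antibody, so that DNA near the target is cut and tagged. All libraries came from Jurkat, an established human leukaemic T cell line. Cells with a control shRNA delivered by lentivirus (shCtrl) were profiled for SATB1 (2 libraries), H3K27ac (2) and CTCF (3), and cells with an shRNA against SATB1 (shSATB1) for H3K27ac (2) and CTCF (3). The other 2 libraries were for Matrin 3 and carry no shRNA on their labels, so they entered no comparison between arms. The design asks what the loss of SATB1 does to CTCF and to H3K27ac. SATB1 was not profiled in shSATB1 cells and no RNA was used here, so the knockdown could not be checked in these files.

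IL2 is the growth factor that T cells secrete on activation. Its high-affinity receptor joins the inducible alpha chain IL2RA to the beta chain IL2RB, which is shared with the IL15 receptor, and to the common gamma chain IL2RG. IL2RG also completes the receptors for IL4 (with IL4R), IL7 (with IL7R) and IL21 (with IL21R), and these receptors signal through JAK1, JAK3 and STAT proteins. IL7R carries the survival signal of thymocytes and resting T cells. SATB1 is a T cell chromatin organiser that binds AT-rich DNA, and IL2 and IL2RA are genes for which its binding has been described. CTCF marks loop anchors and domain boundaries, and H3K27ac marks active promoters and enhancers. Matrin 3 is a nuclear matrix protein.

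The depth of the libraries is unknown, because the lists give peaks and not read totals. The SATB1 lists held 15210 and 14726 peaks, and they shared the exact start of 6001 of them, 40.8% of the shorter list, whereas the overlap of starts in the other 90 pairs reached 1.03% at most. They were therefore counted as 1 sample with no spread. H3K27ac lists held 15972 to 17925 peaks. CTCF lists held 31141 to 32540 peaks in shCtrl and 14695 to 20284 in shSATB1, so the shorter CTCF lists stand beside every CTCF difference below. The Matrin 3 lists held 24566 and 2105 peaks and are given one by one. H3K27ac lay at a gene end in both shCtrl lists at 7 of 8 T cell markers, at none of 4 B cell, 4 myeloid and 4 erythroid markers, and at 1 of 4 NK cell markers (NKG7).

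The 250 bases before the start site of IL2, IL7R, IL2RG and IL2RA are printed here because the first 3 lay under a SATB1 peak and the promoter of IL2RA lay under no peak of any list. They are from RefSeq (GRCh38.p14), read 5′ to 3′ on the strand of the gene. They cover chr4:122456726-122456975 (IL2, minus strand), chr5:35856641-35856890 (IL7R, plus), chrX:71111578-71111827 (IL2RG, minus) and chr10:6062368-6062617 (IL2RA, minus). Capitals mark matches to the 6 motifs that were searched.
IL2: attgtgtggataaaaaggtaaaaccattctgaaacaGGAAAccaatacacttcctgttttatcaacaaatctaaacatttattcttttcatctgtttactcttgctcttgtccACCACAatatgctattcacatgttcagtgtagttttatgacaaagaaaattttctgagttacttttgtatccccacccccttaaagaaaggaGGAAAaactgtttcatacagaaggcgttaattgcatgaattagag
IL7R: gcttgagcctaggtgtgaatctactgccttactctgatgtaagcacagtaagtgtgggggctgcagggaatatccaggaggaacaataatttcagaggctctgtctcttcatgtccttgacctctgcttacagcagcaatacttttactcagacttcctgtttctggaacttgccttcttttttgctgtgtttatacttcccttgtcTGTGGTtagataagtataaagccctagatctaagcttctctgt
IL2RG: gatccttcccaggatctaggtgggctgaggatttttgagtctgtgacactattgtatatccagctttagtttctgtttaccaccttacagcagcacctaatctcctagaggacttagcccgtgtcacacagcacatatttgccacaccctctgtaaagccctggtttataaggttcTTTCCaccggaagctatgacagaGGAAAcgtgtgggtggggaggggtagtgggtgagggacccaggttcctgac
IL2RA: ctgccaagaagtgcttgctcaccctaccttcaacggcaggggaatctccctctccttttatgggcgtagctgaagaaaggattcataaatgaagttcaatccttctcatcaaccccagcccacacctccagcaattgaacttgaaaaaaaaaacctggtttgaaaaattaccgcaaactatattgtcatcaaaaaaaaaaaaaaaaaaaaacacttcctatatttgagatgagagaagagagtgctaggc
The motifs, searched on both strands, were the NFAT core GGAAA (held by 54.4% of 15812 promoters of this length), the AP-1 site TGANTCA (5.05%), the STAT site TTCNNNGAA (6.13%), the RUNX site TGTGGT (8.90%), a CTCF core motif (2.37%) and the matrix attachment core AATATATTT (0.272%). Matches to different motifs did not overlap in the printed sequences. The IL2 promoter held GGAAA at 214 to 210 and at 45 to 41 bases before the start, and the RUNX letters on the other strand at 137 to 132. The IL7R promoter held the RUNX letters at 43 to 38 bases before the start. The IL2RG promoter held GGAAA at 74 to 70 bases (other strand) and at 51 to 47. None of the 6 motifs matched in the IL2RA promoter, which says only that these letters are not in this window.

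GC content was 33.6% at the IL2 promoter, 40% at IL2RA, 43.6% at IL7R and 50% at IL2RG, all under the median of 62.4% over the promoters in the table. Of the members, 6 of 7 were in that table, and IL2RB was not matched. The IL4R promoter (80.8% GC) held GGAAA at 50 to 46 bases before its start and lay under no peak of any list. The IL21R sequence in the table (49.2% GC) lies before a start site at 16:27427271, inside the annotated body of the gene and downstream of its annotated 5′ end at 16:27402174. It held the RUNX letters at 106 to 101 bases and was covered in 4 lists, all CTCF (3 shCtrl and 1 shSATB1). The IL2 promoter was covered in 6 of 14 lists (2 SATB1, 3 H3K27ac, 1 Matrin 3), that of IL7R in 9 (2 SATB1, 4 H3K27ac, 2 CTCF, 1 Matrin 3) and that of IL2RG in 12 (2 SATB1, 4 H3K27ac, 5 CTCF, 1 Matrin 3). The genes thus ranged from promoters seen with every target (IL2RG and IL7R) to promoters seen with none. Over all promoters in the table, 20.9% lay under a SATB1 peak in both lists.

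**Figure D1:**
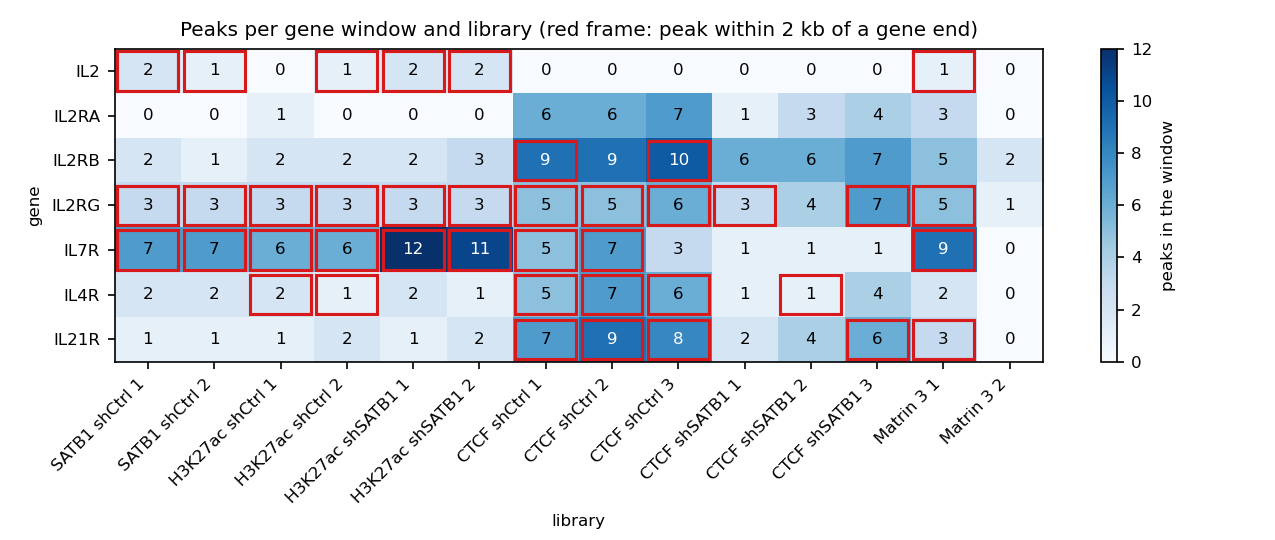
Number of peaks in the window of each gene (rows) in each of the 14 libraries (columns). Darker blue stands for more peaks, and a red frame marks a library with a peak within 2 kb of a gene end. IL7R held the most H3K27ac peaks, 12 and 11 in the shSATB1 libraries, and IL2 held no CTCF peak in any library.

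SATB1 lay at an end of 3 of the 7 genes in both lists, where an end is the 2 kb on either side of an annotated gene start or stop. The share over all protein-coding genes was 24.5%. The 3 genes were IL2, IL2RG and IL7R, and at each of them the peak was at the 5′ end, over the promoter. IL2RA, IL2RB, IL4R and IL21R had no SATB1 peak at an end in either list. SATB1 lay somewhere in the window at 6 of 7 genes, against 57.6% of all genes.

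At IL2 the promoter peak spanned 4:122456061–122457694 over both lists, with a highest signal of 33 in each list. Its percentile, the rank of a peak by highest signal within its own list, was 88.4 and 88.3. The highest signal is the authors' unscaled value and is used here only to rank peaks within a list. A lower SATB1 peak 1.62 kb further upstream was in 1 list only. The IL2 window, 105 kb long, held no other SATB1 peak. At IL2RG the promoter peak spanned X:71111337–71113185, at percentiles of 74.0 and 73.8. A second SATB1 region lay 3.11 kb past the 3′ end of IL2RG, at the ends of its neighbours CXorf65 and FOXO4, and another lay 37.9 kb past the 3′ end.

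IL7R held the most SATB1 of the 7 windows, 7 peaks in each list covering 11.2 and 10.9 kb, where the other members had 0 to 3 peaks. The promoter peak at 5:35856500–35857526 ranked near the middle of its lists, at percentiles of 44.2 and 57.9. The highest ranks lay downstream of the gene, at 5:35907562–35909591 (28.0 kb past the 3′ end, within the body of the neighbour CAPSL, 92.0 and 89.9) and at 5:35882296–35885553 (2.69 kb past it, 84.4 and 86.5). The regions upstream of the promoter, 33.9 and 25.5 kb before it, had mean percentiles of 15.7 and 31.3, and those 19.3 and 20.9 kb past the 3′ end had 24.9 and 28.4. The 2 SATB1 regions of highest rank were thus both on the 3′ side of the gene, in each list.

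**Figure D2:**
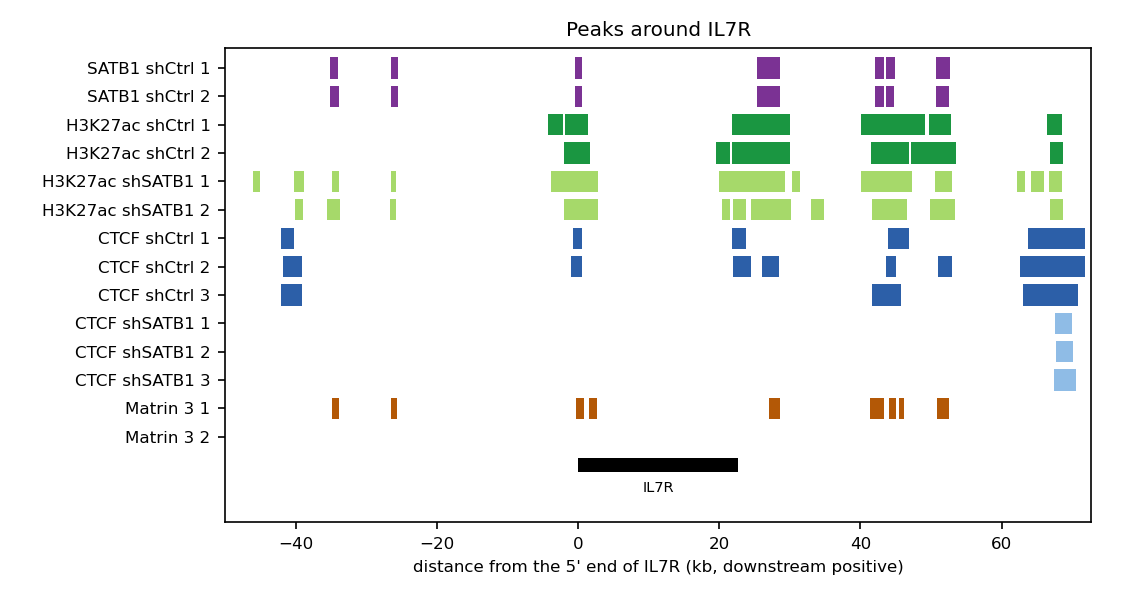
Peaks in the IL7R window, 1 line per library, against the distance from the 5′ end of IL7R in kb. Coloured bars are peaks drawn to scale and the black bar is the gene. The 7 SATB1 peaks recur in both lists, and each shSATB1 CTCF library has 1 peak. Upstream of the gene, 3 H3K27ac regions are in both shSATB1 libraries and in neither shCtrl library.

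IL2RA had no SATB1 peak within 50 kb in either list, and no peak of any target at an end in any of the 14 lists. At IL2RB the only SATB1 region in both lists lay 43.4 kb from the gene, at an end of SSTR3 (22:37218490–37220120, mean percentile 92.2). At IL4R SATB1 lay 2.30 kb past the 3′ end (16:27367073–27368363, percentiles 85.6 and 86.5) and 39.1 kb upstream (mean percentile 25.3). The region 3′ of IL4R is also the only SATB1 region in the IL21R window, because these windows overlap. The region at SSTR3 and the region 3′ of IL4R were thus high in rank, and both lay outside the 2 kb limit.

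Of the 14 distinct SATB1 regions in the windows, 10 (71.4%) carried H3K27ac in both shCtrl lists, against 74.8% of 13072 SATB1 regions over the genome. CTCF in all 3 shCtrl lists was at 6 of 14 (42.9%), against 65.6% over the genome, and the longer Matrin 3 list covered 13 of 14 (92.9%), against 82.9%. At IL7R only 1 of the 7 SATB1 regions carried CTCF in all shCtrl lists, and the SATB1 region of IL2 carried none. At IL2RG all 3 did. In the shSATB1 lists H3K27ac was at 13 of the 14 regions (92.9%), against 74.7% over the genome. At 2 of the 14 (14.3%) it was absent in shCtrl and present in both shSATB1 lists, against 1.86%. Both lay upstream of IL7R, and their H3K27ac peaks had total signals (coverage summed over a peak) of 5846 to 6657. The lowest totals in the shCtrl lists were 6836 and 6653, and the part of this limit in the 2 was not tested. These shares are descriptions and were not tested.

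H3K27ac at the gene ends ranged from a broad domain at IL2RG to no peak at 3 genes. It was at an end in both shCtrl libraries at 3 of 7 genes (38.8% of all genes) and in neither at 3 of 7 (56.7%). IL2RG lay under the highest domain of the 7 windows: 1 peak of 11.6 and 12.5 kb in shCtrl and of 11.9 and 12.1 kb in shSATB1, which also covered CXorf65 and the near end of FOXO4. Its percentile was 99.0 and 99.1 in shCtrl and 98.8 and 97.9 in shSATB1. The IL7R promoter was marked in all 4 libraries, at 79.7 and 84.6 in shCtrl and at 90.6 and 87.4 in shSATB1. The IL2 promoter was marked in 1 of 2 shCtrl libraries, at 9.24, and in both shSATB1 libraries, at 40.5 and 21.4. Ranks from lists of different length show no change, so these values only place each peak in its own list. IL2RA, IL2RB and IL21R had no H3K27ac at an end in any library.

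No gene of the 7 gained H3K27ac at an end, meaning a peak in both shSATB1 and neither shCtrl library (0.501% of all genes did). IL4R met the rule for a loss, which 0.846% of all genes met. The peak concerned, 3′ of IL4R, was called in all 4 libraries and began 1.83 and 1.65 kb from the gene in shCtrl, and 2.13 and 2.13 kb from it in shSATB1. With limits of 1 kb or 5 kb, or with the 500 bp around peak maxima, the count of lost ends was 0.

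Peaks of the 4 H3K27ac libraries merged into 23 distinct regions in the windows. Of these, 10 (43.5%) were in all 4 libraries, against 59.7% of 20526 regions over the genome. No region was lost, meaning called in both shCtrl and neither shSATB1 library (5.95% over the genome). The regions gained numbered 4 (17.4%), where the genome gave 2.62%, and they lay at IL2 and IL7R only. Leaving out shSATB1 replicate 2, so that a call in 1 shSATB1 library sufficed, gave 8 of 22 regions. The share over the genome at that setting was not computed. The 4 stood when lists were shortened to equal length. Shortening only removes peaks, so it cannot show whether weaker peaks were missed in shCtrl.

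The gained region at IL2, 4:122465365–122467729, lay 8.64 and 8.83 kb upstream of the 5′ end in the shSATB1 libraries. Its total signal, the coverage summed over a peak, was 13996 and 10059. The gained regions at IL7R lay 38.8 and 39.0 kb, 33.8 and 33.7 kb, and 25.7 and 25.8 kb upstream of the 5′ end, and their total signals ran from 5336 to 7810. The lowest total signal in each list was 6836 and 6653 in shCtrl and 4405 and 4476 in shSATB1. Of the 6 peaks at IL7R, 4 had totals under the lowest of the shCtrl lists, and both peaks at IL2 had totals above it. The totals are unscaled, and the part of the lower limit in these gains was not tested. The regions 33.9 and 25.5 kb upstream of IL7R carried SATB1 in both shCtrl lists and a peak in the longer Matrin 3 list. The gained regions at IL2 and 39 kb upstream of IL7R carried no SATB1.

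At IL7R the number of H3K27ac peaks was 6 and 6 in shCtrl and 12 and 11 in shSATB1, a difference of 5.5. This quantity was added after the data were seen. The groups did not overlap. Some of the shSATB1 peaks had total signals under the lowest of the shCtrl lists (6653), down to 4424 in replicate 1 and 4809 in replicate 2. The part of this lower limit in the difference was not tested. Only 5 of 19974 genes had a larger difference, all with longer windows (BACH2, HDAC4, LEF1, PRKCA and GALNT2, named after their values were seen, with windows of 221 to 608 kb against 123 kb). The difference lay in the outer flanks: with 20 kb on either side the mean was 4 peaks in shCtrl and 5 in shSATB1 and the groups overlapped (exact permutation p = 1), and with 100 kb the difference was 3.5. The length covered by H3K27ac was 27.9 and 27.3 kb in shCtrl and 36.0 and 29.6 kb in shSATB1, 27.6 kb ± 0.417 against 32.8 kb ± 4.54 (SD, n = 2 each, exact permutation p = 0.33, the lowest value possible with 2 libraries a group). Without shSATB1 replicate 1 the difference of 5.15 kb became 1.94 kb. The domain over the 3′ end was called as 1 peak of 8.12 and 8.11 kb in shCtrl, beside a separate 1.89 kb peak in replicate 2. It was 1 peak of 9.29 kb in shSATB1 replicate 1 and 3 peaks of 1.10, 1.84 and 5.73 kb in replicate 2.

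**Figure D3:**
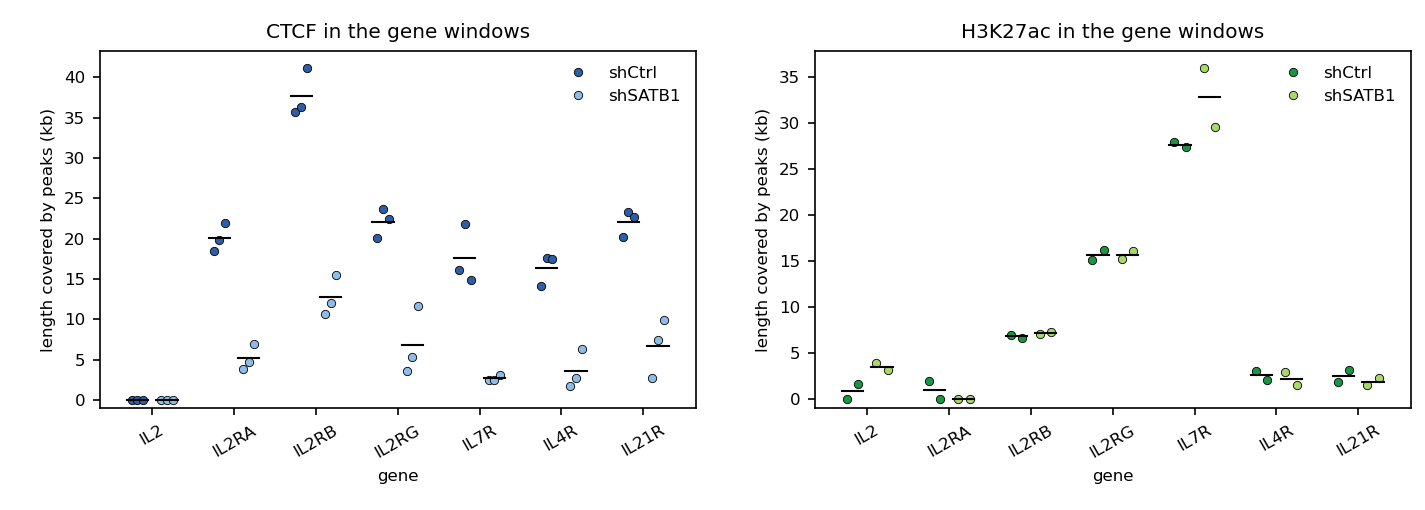
Length covered by CTCF peaks (left) and H3K27ac peaks (right) in each window, in kb. Each point is 1 library and each line the mean of its group. CTCF covered less in each shSATB1 library than in any shCtrl library at the 6 genes with CTCF, and H3K27ac at IL7R was 27.9 and 27.3 kb in shCtrl against 36.0 and 29.6 kb in shSATB1.

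At IL2 the length covered by H3K27ac was 0 and 1.63 kb in shCtrl and 3.91 and 3.09 kb in shSATB1, and the groups did not overlap (0.814 kb ± 1.15 against 3.50 kb ± 0.578, SD, n = 2 each, exact permutation p = 0.33). The number of peaks was 0 and 1 against 2 and 2, and with 100 kb flanks these groups overlapped (exact permutation p = 0.67). At IL2RB the covered length was 6.95 and 6.59 kb against 6.99 and 7.22 kb, without overlap but with the nearest values of the arms at 6.945 and 6.992 kb. All H3K27ac peaks in the IL2RB window lay at ends of its neighbours C1QTNF6 and SSTR3, at least 23.2 kb from the gene. With 20 kb flanks the difference at IL2RB was 0, and with 100 kb flanks it turned to -0.702 kb. Covered length was thus higher without overlap at 3 of 7 genes (IL2, IL2RB and IL7R), where 4.63% of all genes were. The number of peaks was higher without overlap at 2 of 7 (IL2 and IL7R), where 3.99% were. Covered length was lower without overlap at 0 of 7 (33.3% of all genes), and so was the number of peaks (6.83%). With 2 libraries a group none of these differences can pass a test at 0.05.

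The other windows overlapped between arms. IL2RG had 3 peaks in every library and 15.1 and 16.2 kb covered in shCtrl against 15.2 and 16.0 kb in shSATB1. IL4R had 3.07 and 2.01 kb against 2.87 and 1.502 kb, and IL21R had 1.86 and 3.12 kb against 1.46 and 2.27 kb. IL2RA, the inducible alpha chain, held a single H3K27ac peak of 1.89 kb within its body in 1 shCtrl library, at a percentile of 3.78, and none in the other 3. The median ratio of shSATB1 to shCtrl was 0.996 over the 7 members and 0.833 over the 14204 genes with an H3K27ac peak in the window in at least 1 shCtrl library.

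**Figure D4:**
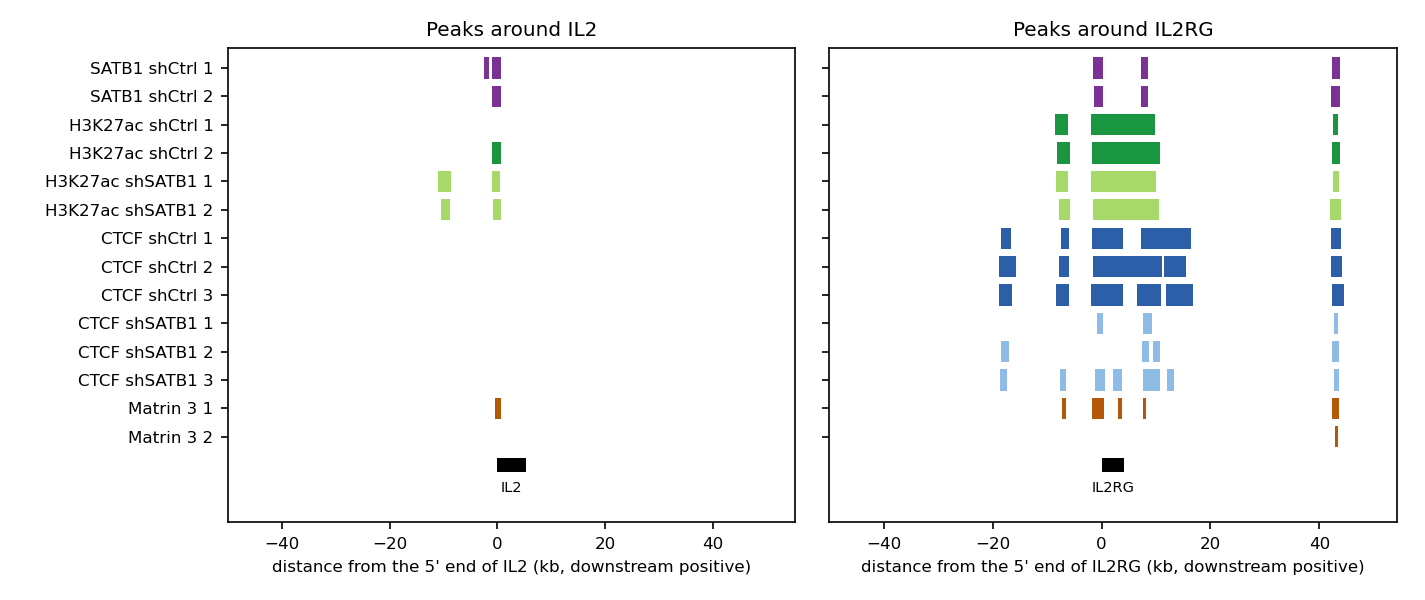
Peaks in the windows of IL2 (left) and IL2RG (right), 1 line per library, against the distance from the 5′ end in kb. Coloured bars are peaks drawn to scale and black bars are the genes. IL2 has SATB1 at its promoter, no CTCF, and a second H3K27ac peak upstream in both shSATB1 libraries. At IL2RG the H3K27ac domain is 11.6 to 12.5 kb wide in all 4 libraries.

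CTCF was absent from the IL2 window in all 6 CTCF libraries, whereas 83.3% of all genes had a CTCF peak in the window in every shCtrl library. The other 6 genes all had one. CTCF covered less of each of these 6 windows in every shSATB1 library than in any shCtrl library. This was so at 80.6% of all genes, so the count of 6 of 7 is near the background, and the opposite was seen at 0 of 7 members and 0% of genes. With the 500 bp around peak maxima in place of whole peaks, the arms overlapped at IL2RG (a difference of -0.333 kb, exact permutation p = 0.8) and not at the other 5 genes. The share of all genes at this setting was not computed. The values come from bulk cells, in which fewer bound cells and less binding per cell cannot be told apart. Depth is unknown, so a difference in depth cannot be told apart from these either.

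At IL7R the covered length was 16.2, 21.9 and 14.9 kb in shCtrl and 2.43, 2.42 and 3.13 kb in shSATB1, 17.6 kb ± 3.72 against 2.66 kb ± 0.410 (SD, n = 3 each, exact permutation p = 0.1, the lowest value possible with 3 libraries a group). Its ratio of 0.151 was the lowest of the members. At IL4R the values were 14.2, 17.6 and 17.5 kb against 1.71, 2.72 and 6.28 kb, a ratio of 0.218. IL2RA had 18.5, 19.9 and 21.95 kb against 3.82, 4.71 and 6.92 kb, a ratio of 0.256. No shSATB1 value reached a shCtrl value at these 3 genes.

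At IL21R the covered length was 20.3, 23.3 and 22.7 kb against 2.69, 7.45 and 9.97 kb, a ratio of 0.303. IL2RG had 20.1, 23.7 and 22.4 kb against 3.54, 5.32 and 11.6 kb, a ratio of 0.310. IL2RB had the most CTCF of the 7 genes, 35.7, 36.3 and 41.2 kb against 10.6, 12.01 and 15.5 kb, a ratio of 0.337. Each of these tests also gave an exact permutation p of 0.1. The median ratio over the 6 genes was 0.280, and that over the 17141 genes with a CTCF peak in the window in at least 1 shCtrl library was 0.373. With lists shortened to equal length the covered length was lower in every shSATB1 library at each of the 6 genes (exact permutation p = 0.1 each). The difference (shSATB1 minus shCtrl) then went from -15.0 to -5.73 kb at IL7R, from -14.9 to -4.30 kb at IL2RA and from -12.8 to -6.11 kb at IL4R. It went from -15.4 to -9.69 kb at IL21R, from -15.2 to -12.5 kb at IL2RG and from -25.0 to -17.9 kb at IL2RB. The share of all genes at equal list length was not computed, and with full lists it was 80.6%. Shortening a list does not change the width of its peaks. Median CTCF peak widths in the full lists were 2371 to 2559 bp in shCtrl and 1469 to 1745.5 bp in shSATB1.

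The number of CTCF peaks was lower without overlap at 5 of 7 genes, where 43.2% of all genes were, and higher without overlap at 0 of 7 (0.876%). IL7R had 5, 7 and 3 peaks against 1, 1 and 1, IL4R 5, 7 and 6 against 1, 1 and 4, and IL2RA 6, 6 and 7 against 1, 3 and 4. IL21R had 7, 9 and 8 against 2, 4 and 6, and IL2RB 9, 9 and 10 against 6, 6 and 7. At IL2RG the groups overlapped, with 5, 5 and 6 against 3, 4 and 7. At equal list length the difference became 0 at IL7R and turned to 0.667 higher in shSATB1 at IL2RA, and no gene had a p under 0.2.

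Peaks of the 6 CTCF libraries merged into 35 distinct regions in the windows. Of these, 8 (22.9%) were lost, meaning called in all shCtrl and no shSATB1 libraries, against 22.7% over 34146 regions of the genome. None was gained (0.00879% over the genome). The share lost is that of the genome. The lost regions had mean shCtrl percentiles of 3.88 to 57.4, and the 10 regions called in all 6 libraries had 64.8 to 99.997. With lists shortened to equal length only 15 regions remained, and 0 were lost. With a peak required to cover 50% of the region 17 of 35 were lost, and without shSATB1 replicate 3 14 of 35 were. The shares over the genome at these settings were not computed.

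The lost regions lay at IL2RA (2), IL2RB (2), IL7R (2), and IL4R (2, of which 1 is also in the IL21R window). At IL7R they were 5:35814761–35817831, upstream and at an end of SPEF2, and 5:35898555–35903729, past the 3′ end and at an end of CAPSL, and the latter carried SATB1 in both lists. The former overlapped the gained H3K27ac region that lay furthest upstream of IL7R. At IL2RA they lay at 10:5976401–5978813, past the 3′ end and at an end of IL15RA, and at 10:6067332–6070348, upstream of the promoter. At IL2RB they lay at 22:37098084–37100073 and 22:37121457–37124280, and at IL4R at 16:27267601–27270526 and 16:27405766–27408290, the latter within the body of IL21R.

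The strongest CTCF in the windows stayed in all 6 libraries, and in the IL2RB and IL2RA windows it lay at ends of neighbours. In the IL2RB window the region 22:37194736–37207177, at an end of C1QTNF6, was at mean percentiles of 99.997 in shCtrl and 99.99 in shSATB1. In the IL2RA window the region 10:6082487–6093629, at an end of RBM17, was at mean percentiles of 99.7 and 99.0. The region 3′ of IL4R (16:27366304–27376220) was at 92.8 and 86.6 and held the SATB1 and H3K27ac peaks described above. The far 3′ side of the IL7R window kept 5:35919444–35928733, at 91.7 and 76.2, which held the only CTCF peak of that window in each shSATB1 library.

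**Figure D5:**
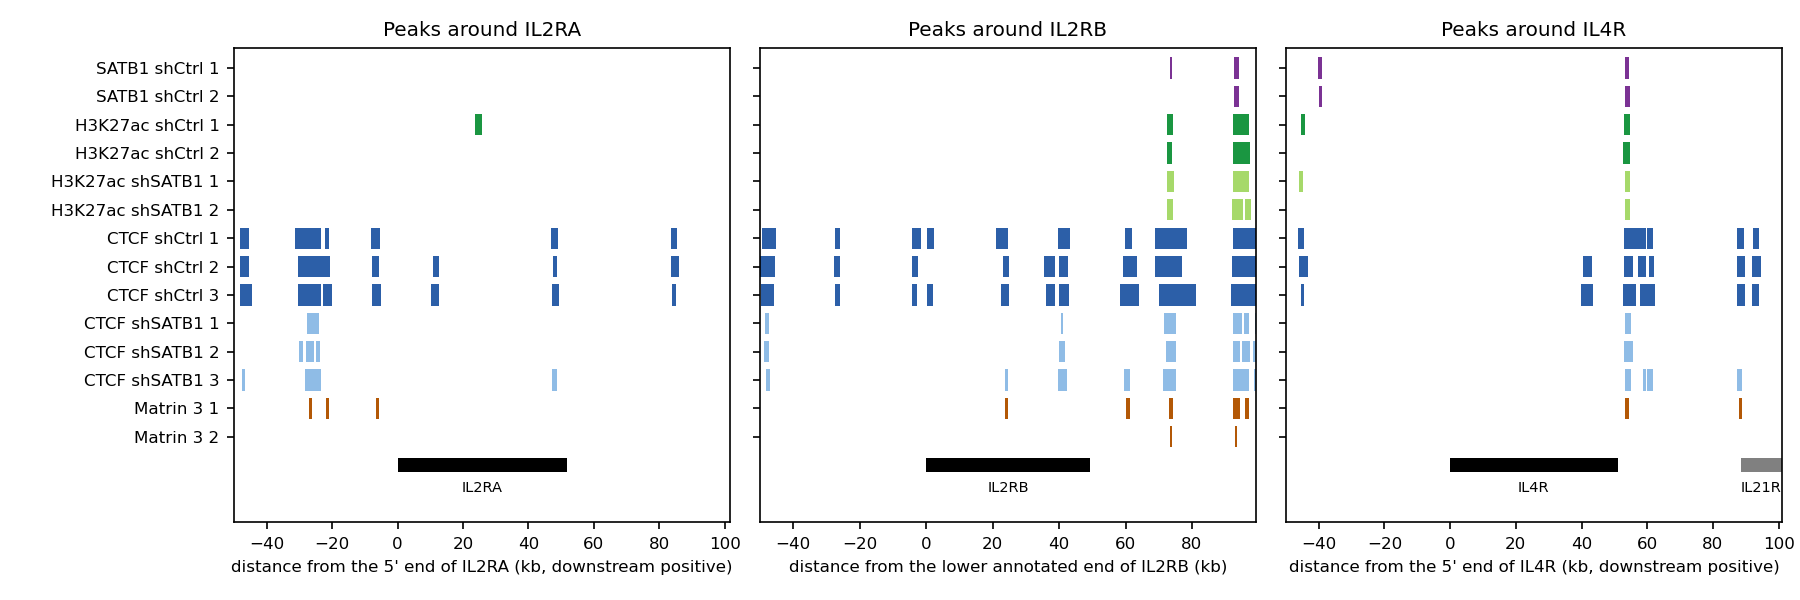
Peaks in the windows of IL2RA (left), IL2RB (centre) and IL4R (right), 1 line per library, against the distance in kb from the 5′ end, or for IL2RB from its lower annotated end. Coloured bars are peaks drawn to scale, black bars are the genes and the grey bar is IL21R. IL2RA has no SATB1 peak, and at each gene the CTCF region of highest rank, outside the gene body, is in all 6 CTCF libraries.

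At gene ends no member lost CTCF in every library (8.58% of all genes did) and none gained it (0% did). IL4R had CTCF at an end in 3 of 3 shCtrl and 1 of 3 shSATB1 libraries, IL21R in 3 and 1, and IL2RG in 3 and 2. IL2RB and IL7R had it in 2 of 3 shCtrl and 0 of 3 shSATB1 libraries. IL2 and IL2RA had none. The IL4R count moves with the 2 kb limit, since the region past its 3′ end was called in all 6 libraries. The IL2RB count moves with it too. Its region 22:37121457–37124280, in 3 shCtrl and 0 shSATB1 libraries, lay 1.56, 2.43 and 2.705 kb from the gene. With a 5 kb limit IL2RB met the rule for a loss. Matrin 3 was at an end of IL2, IL2RG, IL7R and IL21R in the longer list (4 of 7, where 49.3% of all genes had it) and of no member in the shorter (7.92%).

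The other genes of the pathway, a list of 28, were described by the same gene-end counts. SATB1 lay at an end of 8 in both lists (28.6%, against 24.5% of all genes), among them 4 of 8 kinases and STATs (JAK2, TYK2, STAT3 and STAT5A), the adaptor IRS1, and 3 of 7 feedback regulators (SOCS2, PTPN2 and PTPN6). The mean percentile was highest at PTPN6, a phosphatase that dampens receptor signalling (95.3), and at STAT3 (82.2), and lowest at SOCS2 (12.8). None of the 7 ligands or the 4 other receptor chains had SATB1 at an end in both lists. CTCF was lost at 2 of 28, IL15RA, the neighbour of IL2RA that encodes the alpha chain for IL15, and IRS2, and gained at 0. The share lost, 7.14%, was near the 8.58% of all genes. H3K27ac was lost at 0 and gained at 0 of 28. It lay at an end in both shCtrl libraries at 12 genes (42.9%, against 38.8% of all genes) and in both shSATB1 libraries at 8 (28.6%, against 36.9%).

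Genes with gene-end peaks most like those of a member were found by the mean absolute difference, over the 14 lists, of the percentile of the highest gene-end peak. For IL2 they were DCUN1D1 (5.20 percentile points), TMEM181 (6.09) and SLC8A3 (6.48). For IL2RG they were TMSB4X (5.04), its neighbour CXorf65 (5.93), which shares the H3K27ac domain, and MDM4 (5.96). Those for IL7R included ERAP2 (5.96) and MANBAL (6.31). The nearest were ENDOU for IL4R (8.20), GSTM3 for IL21R (1.96) and CADM3 for IL2RB (0.618), where few lists had a gene-end peak (6, 5 and 2 of 14). IL2RA had none and was not ranked.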

How the data were processed

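Peak lists were used as deposited, 1 per library, called per sample. Each gives a position, a total signal and a highest signal, which the authors left as unscaled whole numbers. The submitters' processing notes name SEACR, deepTools, SAMtools, Bowtie2 and Trim Galore for every library, MACS2 for those other than Matrin 3, and the build GRCh38. The role and version of each tool, and any control library, are not given in the sources used here. Of 273747 peaks, 405 outside chromosomes 1 to 22 and X were left out. Gene bodies came from the RefSeq GRCh38.p14 table, and positions are 1-based. An overlap needed 1 bp. Which exon or intron a peak covers was not analysed here. A peak list holds only what passed the caller, so an absent peak is not a measured 0, and a gene end or region can change call when a peak moves across a limit.

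Arms were compared by two-sided exact permutation tests over libraries, each gene alone, with no p over the members. The labels do not say that replicates were separate cultures, so a p measures a spread that may be technical. Percent backgrounds are over all protein-coding genes or all regions. The members and lists were chosen with earlier results of these data known. Named genes were the 7 members, pathway genes with SATB1 at an end or a lost or gained end, neighbours with a peak at an end, and the 3 genes most like each member, not all of which are reported here. The call rules were tested on simulated data. Alternatives were each replicate left out, equal list length, peak maxima, other windows and limits, other call and overlap rules, and pairing by replicate number. Software was Python 3.11.15, numpy 2.4.6, pandas 2.3.3 and matplotlib 3.10.9.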

Additional observations from a re-analysis of the deposited data

How the results depend on the processing

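Depth is unknown, so the list lengths are the only guide to what could be called. Over the CTCF libraries left out in turn, lost gene ends ran from 0 to 1 (1 without shCtrl replicate 2 or 3 or shSATB1 replicate 2 or 3), lost regions from 8 to 14, and the peak difference at IL2RG from -1.83 to 0.167 (higher without shSATB1 replicate 1). Lost CTCF ends were 1 with a 5 kb limit (IL2RB) and 4 when 2 of 3 libraries sufficed, and lost regions were then 21. Lost regions were 17 of 35 with 50% cover and 0 of 15 at equal list length. At equal list length the CTCF peak difference was 0.667 at IL2RA and 0 at IL7R. Over the H3K27ac libraries left out, the difference in covered kb ran from -1.89 to 0 at IL2RA, from -0.586 to 0.47 at IL2RG, from -1.04 to 0.328 at IL4R and from -1.26 to 0.0055 at IL21R. Single values that turned were 0.176 (IL4R, without shCtrl replicate 1) and 0.368 (IL2RG, without shSATB1 replicate 1). H3K27ac peak differences ran from -1 to 0 at IL2RA and from 0 to 1 at IL2RB. H3K27ac ends gained and regions lost each ran from 0 to 1 (1 without shCtrl replicate 2), and regions gained from 4 to 8. On peak maxima the H3K27ac difference was 0 at IL2RG, IL4R and IL21R. At equal list length it was 0 at IL2RA, in length and in number. With 20 kb flanks it was 0 at IL2RB, in length and in number, and with 100 kb flanks it was -0.702 at IL2RB and 0.0315 at IL21R. Lost H3K27ac ends were 0 on peak maxima and with limits of 1 kb and 5 kb. Matrin 3 was at 4 member ends in replicate 1 and at 0 without it. The cause of these changes was not tested beyond what each alternative removes. Shares over all genes or regions were not computed for these alternatives. Pairing was examined by correlations over genes of each library's departure from the mean of its arm, not of the library values themselves. Same-numbered CTCF libraries of the arms had 0.300, 0.0239 and 0.298, and unlike numbers had -0.314 to 0.0589. H3K27ac libraries had 0.1304 with the same number and -0.1304 with the other. With 2 libraries an arm the departures mirror each other, so equal size and opposite sign were fixed in advance. These values do not settle whether the numbers pair the samples. The replicate block leaves every difference and count the same by construction, so only the p can change. For example, CTCF at IL7R kept -15.0 kb with an exact permutation p of 0.25, the smallest for 3 pairs. The smallest for 2 pairs is 0.5. Not every CTCF library correlated best with its own number. The number of H3K27ac peaks was added as a quantity after the data were seen.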
